A study of Homo sapiens with 12 samples.

Results

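The plasminogen activator system was followed through 6 of the 26485 genes of the deposited tables, found by their gene symbols. They were the activators PLAU (urokinase) and PLAT (tissue plasminogen activator), the urokinase receptor gene PLAUR, the activator inhibitors SERPINE2 and SERPINB2, and the broad protease inhibitor A2M. All 6 symbols were found once in the tables.

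Urokinase and tissue plasminogen activator cut the inactive plasminogen into plasmin, a serine protease that digests fibrin and matrix proteins and activates other proteases and growth factors. The receptor encoded by PLAUR holds urokinase on the cell surface and binds vitronectin, while serpins trap the activators and A2M encloses plasmin and many other proteases. The system is studied in prostate cancer for its part in invasion.

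The cells were derivatives of DU145, a long-established line from a human prostate cancer, grown for 72 hours as spheroids of 8000 cells in serum-free medium. All 3 lines carried the Crispr/Cas9 knockout of ITGA2, the α2 integrin gene, made in cells selected by GFP. DU145KO was transfected with nothing further, DU145KO+α2 stably carried the pAWneo2 vector with an α2 integrin cDNA, and DU145KO+vector carried the empty vector. The transfected lines were kept in geneticin, no wild-type cells were sequenced in the samples used here, and each line was sequenced in 4 biological replicates, so that the spread is that between cultures of one line and not between independently made lines. DU145KO+α2 and DU145KO+vector were made to differ in the α2 integrin cDNA, and DU145KO+vector and DU145KO in the empty vector and its selection. In neither comparison can this be told apart from other differences between the lines. DU145KO+α2 against DU145KO holds the cDNA, the vector and the selection together.

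Each sample held 13948734 to 19988111 counted reads. ITGA2 lay at 304.9 ± 33.5 CPM (counts scaled to library size; SD, n = 4) in DU145KO+α2 against 17.6 ± 3.15 in DU145KO+vector and 20.7 ± 4.15 in DU145KO, highest in the line labelled as carrying the cDNA. DU145KO+vector differed from DU145KO in ITGA2 by -0.23 on the log2 scale (adjusted p = 0.534, and 0.0402 with the replicate number as a block). Among markers fixed for the tissue, epithelial genes summed to 468 to 837 RPKM (read counts scaled to gene length and library size) per sample. Of the fibroblast markers 3 of 5 and of the leukocyte markers 2 of 4 stayed at or below 3 counts in every sample, and endothelial markers summed to at most 0.614 RPKM. The fibroblast markers summed to 1.41 to 2.11 RPKM and the leukocyte markers to 26.3 to 45.4 RPKM, almost all of it from the lysosomal gene CD68, at 35.3 to 37.9 RPKM on average per line, while PTPRC and CD3E were the leukocyte markers at or below 3 counts. The epithelial sum itself differed between the lines, at 468 to 625 RPKM in DU145KO+α2, 602 to 742 in DU145KO+vector and 636 to 837 in DU145KO, and its part in the results below was not tested.

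The promoters of the urokinase gene and of its receptor gene are shown because DU145KO+α2 had less of both transcripts than DU145KO. They are the 250 bases before the RefSeq start on the strand of the gene (GRCh38.p14), 5′ to 3′, PLAU from chr10:73910882-73911131 on the plus strand and PLAUR from chr19:43670170-43670419 on the minus strand. Both windows lie inside the GENCODE gene spans given below, which also hold transcripts that start further upstream. Capitals mark GGGCGG, the core of the SP1 box, in PLAU and TGAGTCA, the AP-1 site, in PLAUR.
PLAU: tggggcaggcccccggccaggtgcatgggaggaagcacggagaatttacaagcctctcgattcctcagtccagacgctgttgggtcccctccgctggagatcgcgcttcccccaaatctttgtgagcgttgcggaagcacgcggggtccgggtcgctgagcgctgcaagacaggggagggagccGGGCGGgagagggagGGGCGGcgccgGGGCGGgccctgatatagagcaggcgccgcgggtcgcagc
PLAUR: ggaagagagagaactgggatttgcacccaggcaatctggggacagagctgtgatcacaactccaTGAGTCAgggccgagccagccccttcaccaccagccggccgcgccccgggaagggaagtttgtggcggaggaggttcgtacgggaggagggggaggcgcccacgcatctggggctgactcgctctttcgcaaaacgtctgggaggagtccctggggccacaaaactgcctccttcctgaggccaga

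PLAU held 3 copies of GGGCGG, at 66 to 61, 51 to 46 and 40 to 35 bases before the start. PLAUR held 1 copy of TGAGTCA at 186 to 180 bases before it. Searched on both strands, the SP1 letters (reverse complement CCGCCC) were present in 42.6% of 35116 RefSeq promoters of this length. The AP-1 letters (reverse complement TGACTCA) were present in 4.2% of them, so they were the less common of the pair. The motifs do not overlap in these windows. A TATA box spelled TATAAA, an ETS site spelled CCGGAAGT, a cyclic AMP element spelled TGACGTCA and the NF-kB consensus site were searched in the same way and had no match in either window, and they were present in 10.7%, 3.42%, 1.65% and 0.179% of all promoters. These matches are descriptions of the sequence. GC bases made up 68.8% of the PLAU window and 63.2% of the PLAUR window. The table had no promoter entry for PLAT or A2M.

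In GRCh38 the GENCODE models lie at chr10:73909177-73917496 for PLAU, chr19:43646095-43670547 for PLAUR, chr8:42174718-42207709 for PLAT, chr2:223975045-224039318 for SERPINE2, chr18:63871692-63903888 for SERPINB2 and chr12:9067664-9116229 for A2M. The opposite-strand gene C10orf55 shares 31.0% of the exon bases of PLAU, and its own counts were 0.790% to 2.09% of those of PLAU. A2M shares 8.88% of its exon bases with its opposite-strand neighbour A2M-AS1, whose counts are given with those of A2M below. The libraries were made with a stranded kit, but the strand setting of the counting was not given in the sources used here, so for both pairs reads in the shared exon bases cannot be assigned with certainty to one of the 2 genes.

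Per length, urokinase was by far the most abundant member. Averaged over the 12 samples, PLAU lay at 68.8 RPKM, with 6.22% of the 14732 genes tested above it. SERPINE2 followed at 15.5 RPKM and PLAUR at 5.66 RPKM, with 32.5% and 58.3% of genes above them. A2M at 0.777 RPKM and PLAT at 0.345 RPKM were among the lowest, with 87.1% and 94.0% of genes above them. The order PLAU, SERPINE2, PLAUR held without overlap in every line, and A2M lay above PLAT without overlap in DU145KO, whereas the samples of A2M and PLAT overlapped in both transfected lines.

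SERPINB2, a serpin that inhibits urokinase, had 0 counts in all 12 samples. A floor of 3 counts corresponds to 0.150 to 0.215 CPM at the depths of these samples, so SERPINB2 was not detectable at this depth and was not tested. Floors cover counting error only. The other 5 members passed the filter on low counts. A2M had at least 15 counts in each sample of DU145KO and of DU145KO+α2, so it did not enter through 1 line alone.

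**Figure D1:**
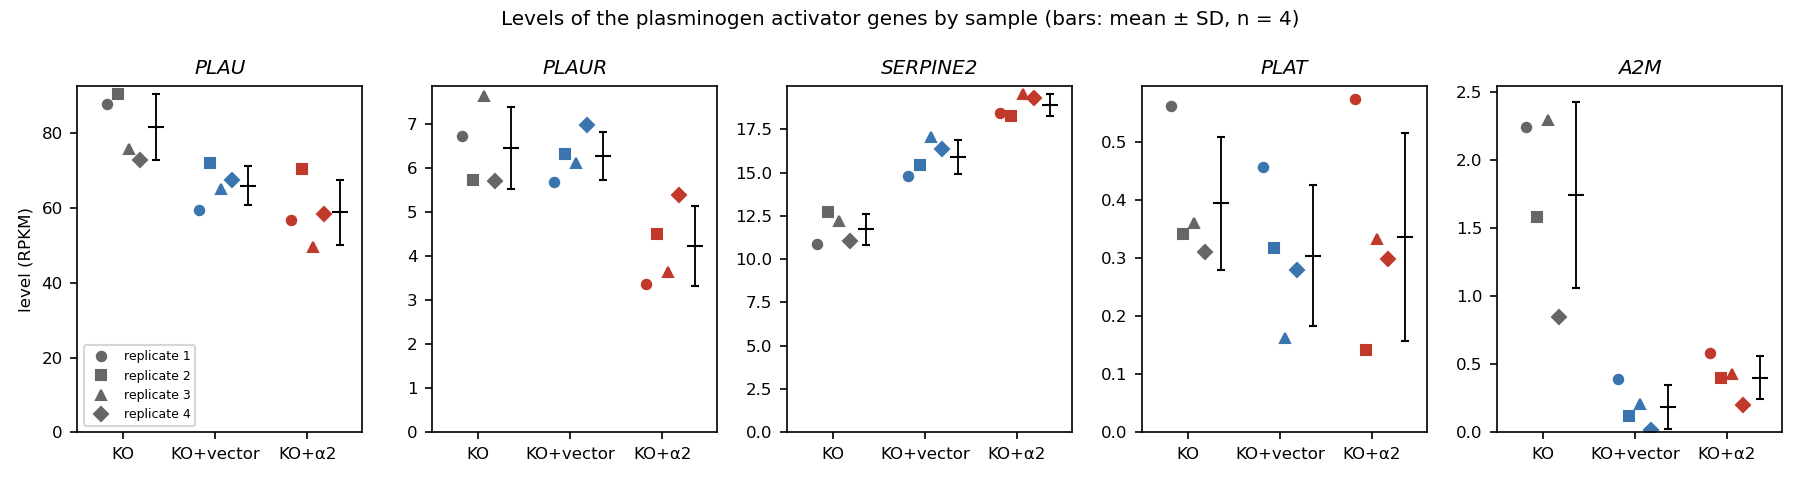
Level in RPKM of 5 members in each of the 12 samples, by line (KO, KO+vector and KO+α2 for DU145KO and its transfected derivatives), with the mean ± SD of 4 replicates and a separate linear axis from 0 for each gene. PLAU and A2M were highest in DU145KO, SERPINE2 was highest in DU145KO+α2 with no overlap between the 3 lines, PLAUR was lower in DU145KO+α2 than in both other lines, and PLAT overlapped throughout.

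Between DU145KO+α2 and DU145KO+vector, 2 of the 5 members tested passed the test, PLAUR being lower and SERPINE2 higher in the α2 integrin positive cells. Here and below a gene passed when its adjusted p in edgeR's quasi-likelihood F-test was under 0.05, and a passing gene with a fold change above 2 counted as differentially expressed (DE). Of all genes tested, 11.9% passed in this comparison, 5.96% higher and 5.95% lower, and 2.21% were DE. No member was DE in this fit, which had no replicate block. With the replicate number as a block A2M also passed here and was DE, being higher in DU145KO+α2. In RNA from whole spheroids, fewer cells expressing a gene and less of its RNA per cell cannot be told apart.

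Against DU145KO, 4 of 5 members passed in DU145KO+α2, with PLAU, PLAUR and A2M lower and SERPINE2 higher, where 8.17% of all genes passed, 3.09% higher and 5.08% lower. In DU145KO+vector against DU145KO, 2 of 5 passed, with A2M lower and SERPINE2 higher, where 2.34% of all genes passed, 0.496% higher and 1.84% lower. The 3 comparisons share their samples pairwise, so their values stand side by side and are not independent of each other. The members were chosen with earlier results of these data known, so their shares beside those of all genes are descriptions only.

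**Figure D2:**
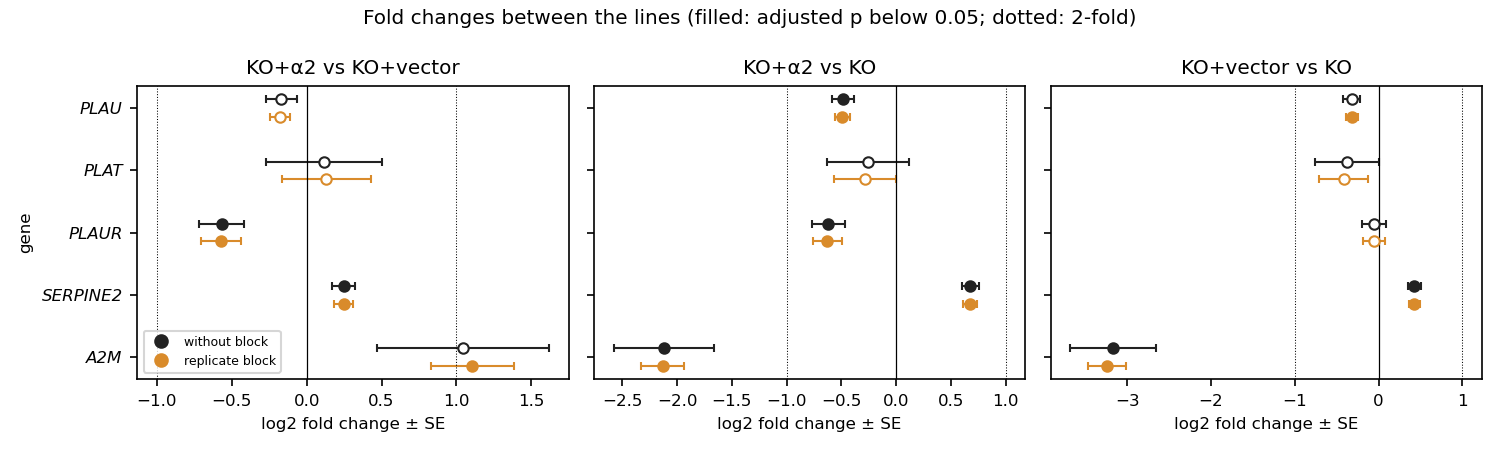
Log2 fold change ± SE of the 5 members tested in the 3 comparisons, from edgeR without (black) and with (orange) the replicate number as a block, filled where the adjusted p was under 0.05. Each panel has its own axis and dotted lines at a 2-fold change. SERPINE2 was filled in all 3 panels, PLAT in none, and the block filled A2M in the left panel and PLAU in the right panel.

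PLAU encodes the secreted protease urokinase. Its level was 87.8, 90.6, 75.6 and 72.8 RPKM in replicates 1 to 4 of DU145KO, 59.4, 72.0, 65.1 and 67.6 in DU145KO+vector and 56.7, 70.4, 49.7 and 58.4 in DU145KO+α2. Every DU145KO sample lay above every sample of both transfected lines, while the transfected lines overlapped. In DU145KO+α2, PLAU fell by 0.49 on the log2 scale relative to DU145KO (SE 0.10, adjusted p = 0.00663), which is 1.40-fold lower. DU145KO+vector differed from DU145KO by -0.32 (SE 0.10, adjusted p = 0.128) without the replicate block and by -0.32 (SE 0.07, adjusted p = 0.00411) with it, so the call depended on the pairing of same-numbered samples. Between DU145KO+α2 and DU145KO+vector the difference was -0.17 (SE 0.10, adjusted p = 0.339) without the block. With the block it was -0.18 (SE 0.07, adjusted p = 0.0590), so it passed in neither fit. The DU145KO+α2 sample was the lower in every same-numbered pair.

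PLAUR encodes the receptor that holds urokinase at the cell surface. In DU145KO its level was 6.74, 5.73, 7.65 and 5.71 RPKM, in DU145KO+vector 5.68, 6.32, 6.13 and 6.97, and in DU145KO+α2 3.38, 4.51, 3.65 and 5.40. All 4 samples with α2 integrin lay below all 8 samples without it, and the DU145KO and DU145KO+vector samples were interleaved. PLAUR fell by 0.57 relative to DU145KO+vector (SE 0.15, adjusted p = 0.0215, 1.48-fold lower) and by 0.62 relative to DU145KO (SE 0.15, adjusted p = 0.0167, 1.54-fold lower). The vector line differed from DU145KO by -0.05 (SE 0.15, adjusted p = 0.915). PLAUR rested on 108 to 255 counts per sample, and its 2 calls were lost in 4 and 3 of the 12 fits that each left out 1 sample, as listed in the closing section.

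For PLAT, tissue plasminogen activator, there were 9 to 29 counts per sample. The levels were 0.563, 0.342, 0.361 and 0.311 RPKM in DU145KO, 0.457, 0.317, 0.162 and 0.280 in DU145KO+vector and 0.575, 0.142, 0.333 and 0.298 in DU145KO+α2. Replicate 1 was the highest in each line and the 3 lines overlapped. The log2 differences were 0.11 (SE 0.39) between the transfected lines, -0.26 (SE 0.37) for DU145KO+α2 and -0.37 (SE 0.38) for DU145KO+vector against DU145KO, with adjusted p = 0.900, 0.767 and 0.726. With these errors, differences of PLAT as small as these were not detectable at this depth, and no larger difference was seen.

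SERPINE2 encodes protease nexin-1, a serpin that traps urokinase, tissue plasminogen activator and thrombin. Its levels were 10.9, 12.7, 12.2 and 11.1 RPKM in DU145KO, 14.8, 15.4, 17.0 and 16.4 in DU145KO+vector and 18.5, 18.3, 19.6 and 19.3 in DU145KO+α2. The 3 lines formed 3 separate steps with no overlap. SERPINE2 rose by 0.43 from DU145KO to DU145KO+vector (SE 0.08, adjusted p = 0.00769, 1.35-fold) and by 0.67 from DU145KO to DU145KO+α2 (SE 0.08, adjusted p = 7.07e-05, 1.60-fold). The step between the transfected lines was smaller at 0.25 (SE 0.08, adjusted p = 0.0466, 1.19-fold). It passed the threshold narrowly, and lost it with library size alone in place of the TMM scaling (0.24, adjusted p = 0.0754) and without a filter on low counts (0.25, adjusted p = 0.0578), and in 7 of the 12 fits that each left out 1 sample.

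A2M encodes alpha-2-macroglobulin, which entraps plasmin and other proteases for clearance by LRP1. Its levels were 2.25, 1.58, 2.30 and 0.848 RPKM in DU145KO, from 68 to 177 counts. In DU145KO+vector they were 0.395, 0.124, 0.208 and 0.0147, from 1 to 33 counts, and in DU145KO+α2 0.581, 0.398, 0.429 and 0.204, from 15 to 43 counts. All DU145KO samples lay above all others, and the transfected lines overlapped. A2M fell by 3.17 on the log2 scale in DU145KO+vector (SE 0.51, adjusted p = 0.00767, 8.97-fold lower) and by 2.12 in DU145KO+α2 (SE 0.46, adjusted p = 0.0134, 4.35-fold lower) relative to DU145KO. Without the block it was the only member called DE, in both of these comparisons, where 0.835% and 2.1% of all genes were DE. Without 1 sample the difference of DU145KO+vector from DU145KO lay between -3.85 (without DU145KO+vector replicate 1) and -2.81 (without DU145KO+vector replicate 4), and it passed in every such fit.

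Between DU145KO+α2 and DU145KO+vector, A2M differed by 1.05 (SE 0.57, adjusted p = 0.293) without the block. The samples with the same number moved together: replicate 4 was the lowest of each line, by -0.81 to -1.94 from the mean log2 CPM of its line, and replicates 1 and 3 were above the mean in all 3 lines. Within each number the α2 integrin positive sample lay above the vector sample, in 4 of 4 pairs. With the block the difference was 1.11 (SE 0.28, adjusted p = 0.00533), so A2M was then DE here too. With the block 26.5% of all genes passed in this comparison, 22.3% in DU145KO+α2 against DU145KO and 13.4% in DU145KO+vector against DU145KO. The vector samples of replicates 2 and 4 held only 8 and 1 counts, so this difference rests on few reads. In the fits without the block it was 1.73 without DU145KO+vector replicate 1 and 0.69 without DU145KO+vector replicate 4, the highest and lowest of the 12 fits that each left out 1 sample.

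**Figure D3:**
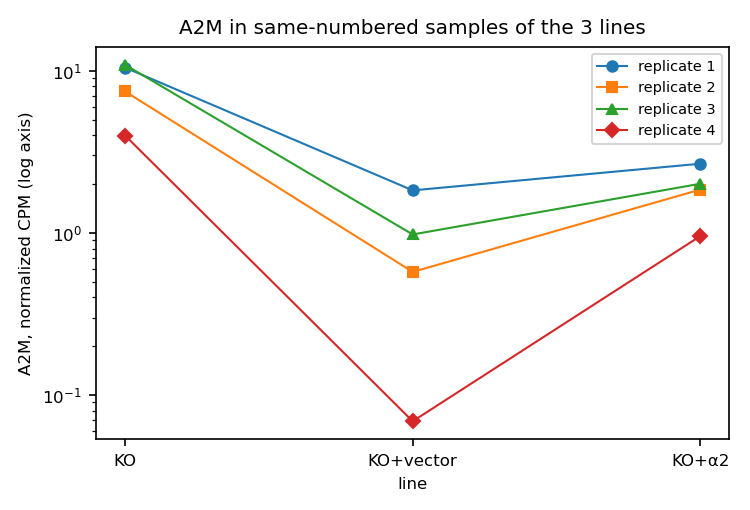
Normalized CPM of A2M on a log axis in the 3 lines, with same-numbered samples joined by a line. All 4 lines fall from DU145KO to DU145KO+vector and rise to DU145KO+α2, staying below DU145KO, with replicate 4 lowest in each line.

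The opposite-strand gene A2M-AS1 had another order of levels than A2M. Its level was 2.83 ± 0.641 CPM (SD, n = 4) in DU145KO, 2.61 ± 0.370 in DU145KO+vector and 3.79 ± 0.526 in DU145KO+α2, against 8.19 ± 3.19, 0.862 ± 0.743 and 1.87 ± 0.706 CPM for A2M. Its counts were 24.9% to 52.9% of those of A2M in DU145KO, 152% to 3200% in DU145KO+vector and 170% to 367% in DU145KO+α2. A2M-AS1 differed by 0.52 between the transfected lines (SE 0.19, adjusted p = 0.0898, and 0.0299 with the block).

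The groups of 4 did not overlap for 2 of 5 members between the transfected lines (PLAUR and SERPINE2), 4 of 5 in DU145KO+α2 against DU145KO and 3 of 5 in DU145KO+vector against DU145KO. Across all genes tested 17.2%, 12.9% and 8.76% did not overlap in these comparisons.

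The balance of protease and inhibitor transcripts within a sample does not depend on how libraries are scaled. The ratio of PLAU to SERPINE2 in RPKM was 8.06, 7.11, 6.19 and 6.58 in DU145KO, 4.01, 4.67, 3.82 and 4.13 in DU145KO+vector and 3.07, 3.85, 2.54 and 3.02 in DU145KO+α2. Every DU145KO sample lay above the others, and the transfected lines overlapped by 1 sample. The log2 ratio was lower by 1.17 in DU145KO+α2 (difference -1.17, SE 0.15, 2.25-fold) and by 0.75 in DU145KO+vector (difference -0.75, SE 0.10, 1.68-fold) than in DU145KO, each in 4 of 4 same-numbered pairs and each with a two-sided exact permutation p = 0.0286, the smallest that 4 against 4 can give. Between the transfected lines it was -0.43 (SE 0.14, exact permutation p = 0.0571), lower in 4 of 4 pairs. Over the 9 ratio tests made, each of these 3 had an adjusted exact p of 0.129, so none passed the correction. With 0.0286 as the smallest possible p, it could be passed only if most of the 9 tests reached that value. The failure to pass therefore says little about the ratios.

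The number of urokinase transcripts per receptor transcript, PLAU to PLAUR, differed by less. On the log2 scale it was 0.42 higher in DU145KO+α2 than in DU145KO+vector (SE 0.15, exact permutation p = 0.0571, adjusted p = 0.129), in 4 of 4 pairs. Against DU145KO it differed by 0.14 in DU145KO+α2 (SE 0.20, exact permutation p = 0.457) and by -0.27 in DU145KO+vector (SE 0.15, exact permutation p = 0.114). PLAT to PLAU differed by -0.12 to 0.25 between lines, with exact permutation p from 0.686 to 0.857, and 2 further ratios were not computed because SERPINB2 was at 0.

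**Figure D4:**
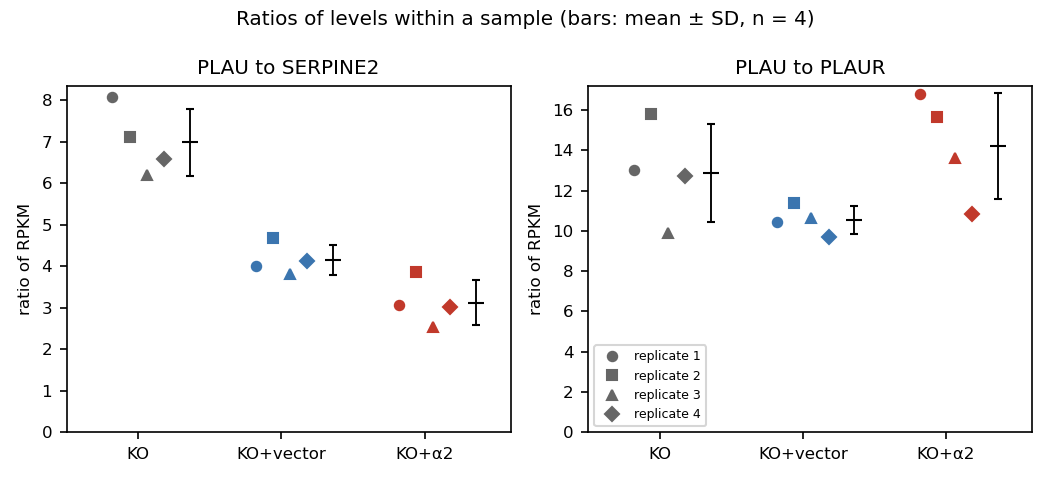
Ratio of PLAU to SERPINE2 (left) and of PLAU to PLAUR (right) in RPKM in each sample, with the mean ± SD of 4 replicates per line and axes from 0. The left ratio was 6.19 to 8.06 in DU145KO, 3.82 to 4.67 in DU145KO+vector and 2.54 to 3.85 in DU145KO+α2, whereas the lines overlapped in the right ratio.

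The genes around a member can shift together where lines differ in the copies of a region. Among tested genes that start within 5 Mb of a member, the median log2 fold change was between -0.07 and 0.14 in all 3 comparisons for all 6 members. It was farthest from 0 around PLAT, at 0.11, 0.14 and 0.04 over 37 genes. Around A2M, where the member itself differed most, it was 0.08, 0.04 and -0.02 over 97 genes.

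The pattern of A2M over the 12 samples was most like that of PRAF2, NOTCH3 and ZDHHC9 among genes averaging 1 or more in log2 CPM, with Pearson r of 0.944, 0.940 and 0.918 as a description over samples of 3 lines. NOTCH3, a Notch receptor, had 45.0 CPM in DU145KO, 20.03 in DU145KO+vector and 28.4 in DU145KO+α2, the same order of lines as A2M.

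Around the 6 members, 92 further genes were placed in 9 lists by their role, and 65 of them passed the filter. Of these, 13 were higher and 10 lower in DU145KO+α2 when set against DU145KO+vector (35.4%, beside 11.9% of all genes). Against DU145KO, 3 were higher and 11 lower in DU145KO+α2 (21.5%, beside 8.17%), and 0 higher and 4 lower in DU145KO+vector (6.15%, beside 2.34%). With the block these shares were 55.4%, 43.1% and 21.5%, beside 26.5%, 22.3% and 13.4% of all genes. The counts of each list below are to be read beside the shares of all genes given here. The lists were chosen with earlier results of these data known, so the shares describe the chosen genes and do not test the pathway. The genes named below were those called DE, filled up to 2 per list by level.

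**Figure D5:**
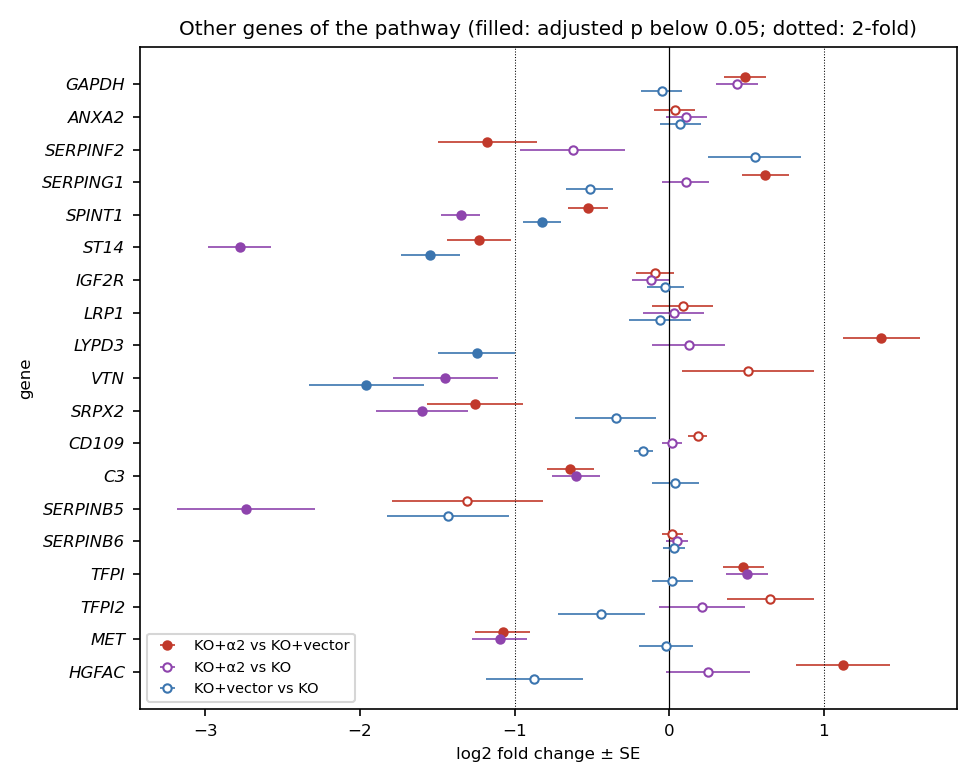
Log2 fold change ± SE of 19 named genes of the 9 lists in the 3 comparisons, filled where the adjusted p was under 0.05, with dotted lines at a 2-fold change. ST14 and SPINT1 were the only ones filled on the same side in all 3 comparisons, MET was filled in both comparisons of DU145KO+α2, and LYPD3 was filled on opposite sides in DU145KO+α2 and DU145KO+vector.

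Plasminogen itself (PLG, named after its values were seen) had at most 3 counts in any sample. Surface proteins described as plasminogen receptors were abundant: ANXA2 averaged 674 RPKM and passed in no comparison. GAPDH, a glycolytic enzyme also found on cell surfaces, was the 1 of 7 tested genes of this list to pass, at 1036 ± 179 RPKM in DU145KO+α2 and 738 ± 99.1 in DU145KO+vector (SD, n = 4). It rose by 0.49 (SE 0.14, adjusted p = 0.0270) between these lines, where the median of the list was 0.04, and with the block 2 of the 7 passed. DU145KO+α2 differed from DU145KO in GAPDH by 0.44 (adjusted p = 0.0589, and 0.000144 with the block).

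Proteases that activate pro-urokinase and their inhibitors held the 2 named genes that passed in all 3 comparisons. ST14, the membrane protease matriptase, lay at 10.4 ± 2.28 RPKM in DU145KO, 3.58 ± 0.629 in DU145KO+vector and 1.53 ± 0.463 in DU145KO+α2 (SD, n = 4), without overlap between the lines. It fell by 1.55 in DU145KO+vector (SE 0.19, adjusted p = 0.000586) and by 2.78 in DU145KO+α2 (SE 0.20, adjusted p = 1.84e-06, 6.86-fold lower) relative to DU145KO, and by 1.23 between the transfected lines (SE 0.21, adjusted p = 0.00141). SPINT1, the Kunitz-type inhibitor of matriptase, took the same 3 steps, at 26.6 ± 2.83, 15.2 ± 1.61 and 10.6 ± 2.27 RPKM. It fell by 0.82, 1.35 and 0.53 in the same order (SE 0.12, 0.13 and 0.13), with adjusted p = 0.0024, 1.2e-05 and 0.0123. Of the 8 tested genes of this list, 3 were lower and 1 higher between the transfected lines (5 and 2 with the block), with a median of -0.38 beside -0.01 over all genes tested. Of the 5 epithelial markers, 3 fell in DU145KO+α2 relative to DU145KO, EPCAM by 1.14, CDH1 by 1.13 and KRT18 by 0.42 (adjusted p = 1.86e-05, 0.00054 and 0.0434), while KRT8 differed by -0.37 and KRT19 by -0.06 (adjusted p = 0.207 and 0.764). Without the block only EPCAM passed in DU145KO+vector against DU145KO, and only CDH1 between the transfected lines. With the block 4 of the 5 were lower in DU145KO+α2 against DU145KO, KRT8 being added (adjusted p = 0.0476). Between the transfected lines 3 were then lower, CDH1, KRT8 and KRT18 (adjusted p = 0.0364, 0.0354 and 0.00597). In DU145KO+vector against DU145KO it remained EPCAM alone. The part of the epithelial markers in the values of ST14 and SPINT1 was not tested.

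Among other inhibitors of plasmin and its activators, 2 of 6 tested genes passed between the transfected lines, in opposite directions. SERPING1, the C1 inhibitor, was 40.7 ± 4.34 RPKM in DU145KO+α2 and 26.4 ± 5.14 in DU145KO+vector and rose by 0.62 (SE 0.15, adjusted p = 0.0162). DU145KO+vector differed from DU145KO in SERPING1 by -0.51 (adjusted p = 0.104, and 3.28e-05 with the block). SERPINF2, the main serpin of plasmin, had only 4 to 21 counts per sample and fell by 1.18 (SE 0.32, adjusted p = 0.0249). Among the clade B serpins, the relatives of SERPINB2, SERPINB6 averaged 35.2 RPKM and passed in no comparison. SERPINB5, known as maspin, fell by 2.74 in DU145KO+α2 relative to DU145KO (SE 0.45, adjusted p = 0.00154), from 1.69 ± 0.624 to 0.248 ± 0.106 RPKM. In DU145KO+vector it was 0.613 ± 0.432 RPKM, and its differences from both other lines passed with the block (adjusted p = 0.00586 against DU145KO+α2 and 0.000209 against DU145KO) and not without it (0.105 and 0.0799).

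The list of partners and Ly6 relatives of the urokinase receptor, which includes integrin subunits, gave 5 of 11 passing genes between the transfected lines. Without the block 2 were higher and 3 lower, and with it 2 and 4. LYPD3, a Ly6 family relative of PLAUR, was 11.9 ± 2.17 RPKM in DU145KO+α2, 4.54 ± 1.73 in DU145KO+vector and 10.8 ± 3.24 in DU145KO. It rose by 1.37 in DU145KO+α2 relative to DU145KO+vector (SE 0.25, adjusted p = 0.00312) and fell by 1.25 in DU145KO+vector relative to DU145KO (SE 0.25, adjusted p = 0.0215), while DU145KO+α2 and DU145KO overlapped. SRPX2, a secreted ligand of the receptor, fell by 1.26 and 1.60 in DU145KO+α2 relative to DU145KO+vector and DU145KO (SE 0.31 and 0.30, adjusted p = 0.0132 and 0.00292), on 4 to 21 counts per sample. VTN, the matrix protein vitronectin that the receptor binds, fell by 1.45 in DU145KO+α2 and fell by 1.96 in DU145KO+vector relative to DU145KO (SE 0.34 and 0.37, adjusted p = 0.0144 and 0.0092), on 4 to 35 counts per sample.

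Among the clearance receptors, LRP1, which takes up complexes of urokinase and of alpha-2-macroglobulin with their partners, averaged 24.7 RPKM and IGF2R, which also binds the urokinase receptor, 35.1 RPKM, and neither passed in any comparison. Of the 8 tested genes of this list, 2 were higher and 1 lower between the transfected lines. In the alpha-2-macroglobulin family, CD109 averaged 11.5 RPKM and passed in no comparison, with 0.18 between the transfected lines (adjusted p = 0.0680, and 0.0143 with the block) and -0.17 in DU145KO+vector against DU145KO (adjusted p = 0.199, and 0.0440 with the block). Complement C3 fell by 0.64 and 0.60 in DU145KO+α2 relative to DU145KO+vector and DU145KO (SE 0.15 in both, adjusted p = 0.0137 and 0.0257), and both calls were lost with the block (adjusted p = 0.0591 and 0.0800).

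Of the coagulation genes, TFPI, the inhibitor of the tissue factor pathway, was the only one of 8 to pass in any comparison without the block. With the block 6 of the 8 passed between the transfected lines, 4 higher and 2 lower, beside 26.5% of all genes. TFPI was 147 ± 31.4 RPKM in DU145KO+α2, 105 ± 14.6 in DU145KO+vector and 103 ± 13.3 in DU145KO. In DU145KO+α2 it rose by 0.48 and 0.50 relative to DU145KO+vector and DU145KO (SE 0.14 in both, adjusted p = 0.0304 and 0.0321), with samples of the lines overlapping. Its relative TFPI2 was 0.65 higher in DU145KO+α2 than in DU145KO+vector (adjusted p = 0.179, and 2.65e-05 with the block) and differed by -0.44 in DU145KO+vector against DU145KO (adjusted p = 0.531, and 0.00225 with the block). The list of growth factors released or activated by the system also held receptors, an activating protease and a binding protein. It gave 5 higher and 1 lower gene of 9 between the transfected lines, with a median of 0.39 (5 and 3 with the block). Of all genes 11.9% passed there, and 26.5% with the block. The lower gene was the receptor gene MET. MET, the receptor of hepatocyte growth factor, fell by 1.08 and 1.10 in DU145KO+α2 relative to DU145KO+vector and DU145KO (SE 0.18 in both, adjusted p = 0.00167 and 0.00199), from 13.3 ± 2.97 and 13.4 ± 2.65 to 6.31 ± 0.638 RPKM. HGFAC, the protease that activates hepatocyte growth factor, rose by 1.12 relative to DU145KO+vector (SE 0.30, adjusted p = 0.0236) on 5 to 17 counts per sample, and did not pass with the DESeq2 Wald test (adjusted p = 0.0680).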

How the data were processed

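Libraries from a stranded mRNA kit were read in 2 lanes with single ends. The authors used TopHat2 2.1.0 for alignment to hg38 and Subread 1.5.0 for counting reads with a unique alignment on known genes, as the paper and the submitters' processing notes state. The deposited counts were not normalized. The authors also deposited RPKM values made after TMM normalization, which were used here for levels and ratios.

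Counts were tested in R 4.3.3 with edgeR 4.0.16 (TMM, filterByExpr with a minimum count of 10, robust quasi-likelihood F-test, all 12 samples in 1 model, Benjamini-Hochberg over 14732 genes, two-sided). SE is the log2 fold change divided by the square root of F. Ratios were compared with exact permutation tests. Lines and replicate numbers come from the labels. Same-numbered samples of different lines deviated together (12 pairs, r 0.135 to 0.554, other pairs on average -0.13), so the numbers were taken to pair the samples. The fit with the number as a block is given for each member, ITGA2, A2M-AS1, named list gene or named marker whose call it changed. Nothing states what the numbers share.

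The members and lists were chosen with earlier results of these data known. Genes named are the members, ITGA2, list genes called DE (or the most abundant, up to 2 per list) and the 3 genes most correlated with a DE member. The scripts were tested on simulated counts. Positions and promoters come from GENCODE v44 and RefSeq. Alternatives were other size factors, DESeq2 1.42.0, voom with limma 3.58.1, other filters, a fit of 2 lines, the block, and fits that each left out 1 sample.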

Additional observations from a re-analysis of the deposited data

How the results depend on the processing

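All members and named list genes that passed kept their direction under all alternatives, and 13 of the 23 passing results of the 19 named list genes kept their call under every one. The passing results of the other list genes were not followed one by one. Without 1 sample, PLAUR lay between -0.71 and -0.47 against DU145KO+vector, losing its call without replicates 1 or 3 of DU145KO+α2 or 2 or 4 of DU145KO+vector, and between -0.76 and -0.52 against DU145KO, losing it without replicate 3 of DU145KO or 1 or 3 of DU145KO+α2. SERPINE2 lay between 0.22 and 0.28 between the transfected lines and lost its call in 7 of 12 such fits (each of the DU145KO+α2 and DU145KO+vector samples apart from DU145KO+vector replicate 3), and also with library size alone (0.24) and no filter (0.25), which left 1 member past the test in place of 2. The members past that test were 0 to 2 without 1 sample. Uncalled differences changed sign: PLAT -0.26 to 0.41 between the transfected lines and -0.63 to 0.019 in DU145KO+α2 against DU145KO, PLAUR -0.11 to 0.043 in DU145KO+vector against DU145KO. Among list genes, calls between the transfected lines were lost in 3 such fits for GAPDH and SERPING1, 4 for SERPINF2 and 5 for TFPI and HGFAC, and calls against DU145KO in 1 for VTN, 4 for C3 and 5 for TFPI and LYPD3, and the LYPD3 call was also lost when the 2 lines were fitted alone. The cause of these losses was not tested, beyond the smaller number of samples.

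With the replicate block, which follows the pairing of the samples, A2M (1.11) and PLAU (-0.32) passed as given above, and 3911, 3286 and 1980 genes passed in the 3 comparisons in place of 1754, 1203 and 344. DE genes in DU145KO+vector against DU145KO were then 218 in place of 123. Of the list genes, 18 were higher and 18 lower between the transfected lines. In DU145KO+α2 against DU145KO 10 were higher and 18 lower, and in DU145KO+vector against DU145KO 1 was higher and 13 lower. The block changed no other member's call. A filter of 10 counts in every sample removed A2M and PLAT, leaving 1 member past the test in DU145KO+vector against DU145KO, and left 178, 160 and 61 DE genes. The DESeq2 Wald test called 587 genes in DU145KO+vector against DU145KO, and leaving out 1 sample gave 160 to 528 passing and 79 to 196 DE genes there, the highest without DU145KO replicate 4 and DU145KO+vector replicate 1 and the lowest of both without DU145KO+vector replicate 3. Within 2 Mb in place of 5 Mb, the regional medians were -0.069 (PLAU), -0.032, 0.077 and 0.10 (PLAT), -0.076 and -0.048 (SERPINE2), -0.18 (SERPINB2) and 0.16, 0.071 and -0.055 (A2M). Depth limits PLAT, SERPINB2 and A2M in DU145KO+vector most.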
